A study of Mus musculus with 24 samples.

Results

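The genes of the CCR2 chemokine axis were examined in epididymal white fat: the ligands Ccl2, Ccl7, Ccl8 and Ccl12 and their receptor Ccr2. They were taken by gene symbol, with the probe set of highest mean over all arrays for each gene, and all 5 genes were found among the 19938 named genes tested. Each had 1 probe set among the 35556 deposited. Wild-type male C57Bl/6 mice were studied in 4 groups of 6: lard-fed germ-free, lard-fed conventional, fish oil-fed germ-free and fish oil-fed conventional mice. Feeding began at 11 weeks of age, went on for 11 weeks, and used diets matched for energy with 45% of it from fat, either lard or menhaden fish oil. Mice were fasted for 4 h before they were killed, and each gave 1 one-colour Affymetrix array. Germ-free mice carry no microbes. No group received a low-fat diet, and the bacterial state of a mouse and the colony it came from cannot be told apart in this design. The labels do not say how mice were housed, so the p-values measure the spread between these mice.

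Chemokines are small secreted proteins that guide white blood cells along a gradient. Ccl2, also called MCP-1, Ccl7 (MCP-3), Ccl8 (MCP-2) and Ccl12 (MCP-5, a gene found in rodents) form the monocyte chemoattractant group. Ccr2 is the G protein-coupled receptor that classical monocytes carry, which they need both to leave the bone marrow and to enter inflamed tissue. In the fat of obese mice, macrophages, stromal cells and adipocytes make Ccl2, and Ccr2-bearing monocytes are a source of the macrophages that gather there. Ccl7 also acts through Ccr1 and Ccr3, and mouse Ccl8 also through Ccr8.

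All 4 ligand genes lie close together on chromosome 11 and Ccr2 lies on chromosome 9. In the RefSeq annotation the order on chromosome 11 is Ccl2, Ccl7, Ccl11, Ccl12, Ccl8 and Ccl1, which makes 6 neighbouring genes. Of the 5 members, 3 matched RefSeq's table of promoters (build GRCm38.p6): Ccl8, Ccl12 and Ccr2. Ccl2 and Ccl7 are named only. The start site that the table uses for Ccr2 lies inside the annotated gene, so its window was left out. For the neighbouring ligand genes Ccl8 and Ccl12, the 250 bases before the start site are shown, both on the plus strand, so that their sequences can be compared. Capitals mark the letters TATAAAA, the core letters of a TATA box, a motif that was searched for after the values had been seen.
Ccl8, chr11:82114935-82115184: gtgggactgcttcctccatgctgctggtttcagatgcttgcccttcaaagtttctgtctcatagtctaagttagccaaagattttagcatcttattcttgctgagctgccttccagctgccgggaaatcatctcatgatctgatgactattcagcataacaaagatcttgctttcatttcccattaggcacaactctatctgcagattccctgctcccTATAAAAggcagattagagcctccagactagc
Ccl12, chr11:82101595-82101844: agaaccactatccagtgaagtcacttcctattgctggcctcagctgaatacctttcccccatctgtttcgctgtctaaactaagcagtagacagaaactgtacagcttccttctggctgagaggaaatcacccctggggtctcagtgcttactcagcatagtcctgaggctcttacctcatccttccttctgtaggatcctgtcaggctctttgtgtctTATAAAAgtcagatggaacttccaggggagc

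The Ccl8 and Ccl12 sequences held TATAAAA, starting at positions -32 and -31 from the start site. Of all 32851 mouse promoters in windows of 300 bases, which add the 50 bases after the start, 5.48% held these letters on either strand. Letters of an NF-kappaB motif (GGG and CC with 5 free bases between them, in 50.8% of promoters), an AP-1 motif (TGANTCA, in 7.81%) and an interferon response motif (GAAA repeated after 2 free bases, in 3.44%) were searched on both strands. None of these 3 was found in the 300-base windows of Ccl8 and Ccl12, which says only that the letters are not in these windows.

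A few arrays stood apart, which bears on the values that follow. On principal component 1, with 49.46% of the variance, lard-fed conventional mice 5 and 6 lay at 33.0 and 42.1, against -4.62 to 8.92 for the other 4 mice of their group. Both lay within the range of lard-fed germ-free mice, 18.7 to 46.1. The mean of 19 liver transcripts ranged from 8.09 to 9.36 in the germ-free group on fish oil, and from 6.48 to 8.12 in all other mice. The mean of 19 intestinal epithelium transcripts reached 9.14 in mouse 4 of the lard-fed germ-free group, 6.45 in mouse 5, 6.32 in mouse 2 and 6.10 in mouse 6 of that group, and was at most 6.00 in the other mice. Results were therefore also fitted without the lard-fed conventional mice numbered 5 and 6, then without the lard-fed germ-free mice numbered 2, 4 and 5, and then with the liver mean as a covariate. Since the liver mean nearly sets the fish oil-fed germ-free group apart, that last fit cannot cleanly part liver transcript from group. Its list also holds Cyp2e1, which followed diet in both states. Cyp2e1 averaged 11.33 (germ-free) and 11.67 (conventional) on lard, and 13.38 and 13.50 on fish oil. The covariate thus carries part of a diet difference. The tissue label was borne out in every mouse by mature adipocyte markers, whose mean lay between 12.24 and 12.98 on the log2 scale.

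Ccr2 was higher with lard whether or not the mice carried microbes. Its RMA signal on the log2 scale had a lowest, median and highest value of 8.85, 9.36 and 9.86 in lard-fed germ-free mice and 9.24, 9.61 and 9.75 in lard-fed conventional mice. With fish oil they were 7.82, 8.04 and 8.32 in germ-free mice and 7.44, 8.11 and 8.38 in conventional mice. Every lard-fed mouse lay above every fish oil-fed mouse, and within a diet the bacterial groups overlapped. In germ-free mice, Ccr2 averaged 9.34 ± 0.34 with lard and 8.04 ± 0.22 with fish oil (SD, n = 6 each), 2.46-fold higher, or 1.30 ± 0.15 in log2 (SE; limma adjusted p = 6.96e-07). In conventional mice it averaged 9.57 ± 0.18 with lard and 7.99 ± 0.35 with fish oil (SD, n = 6 each), 3.00-fold higher, or 1.59 ± 0.15 in log2 (SE; limma adjusted p = 6.13e-08). The groups also failed to overlap, with lard above, for 13.4% of all genes in germ-free mice and 8.01% in conventional mice. In bulk tissue, fewer cells of a type and less RNA per cell cannot be told apart.

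**Figure D1:**
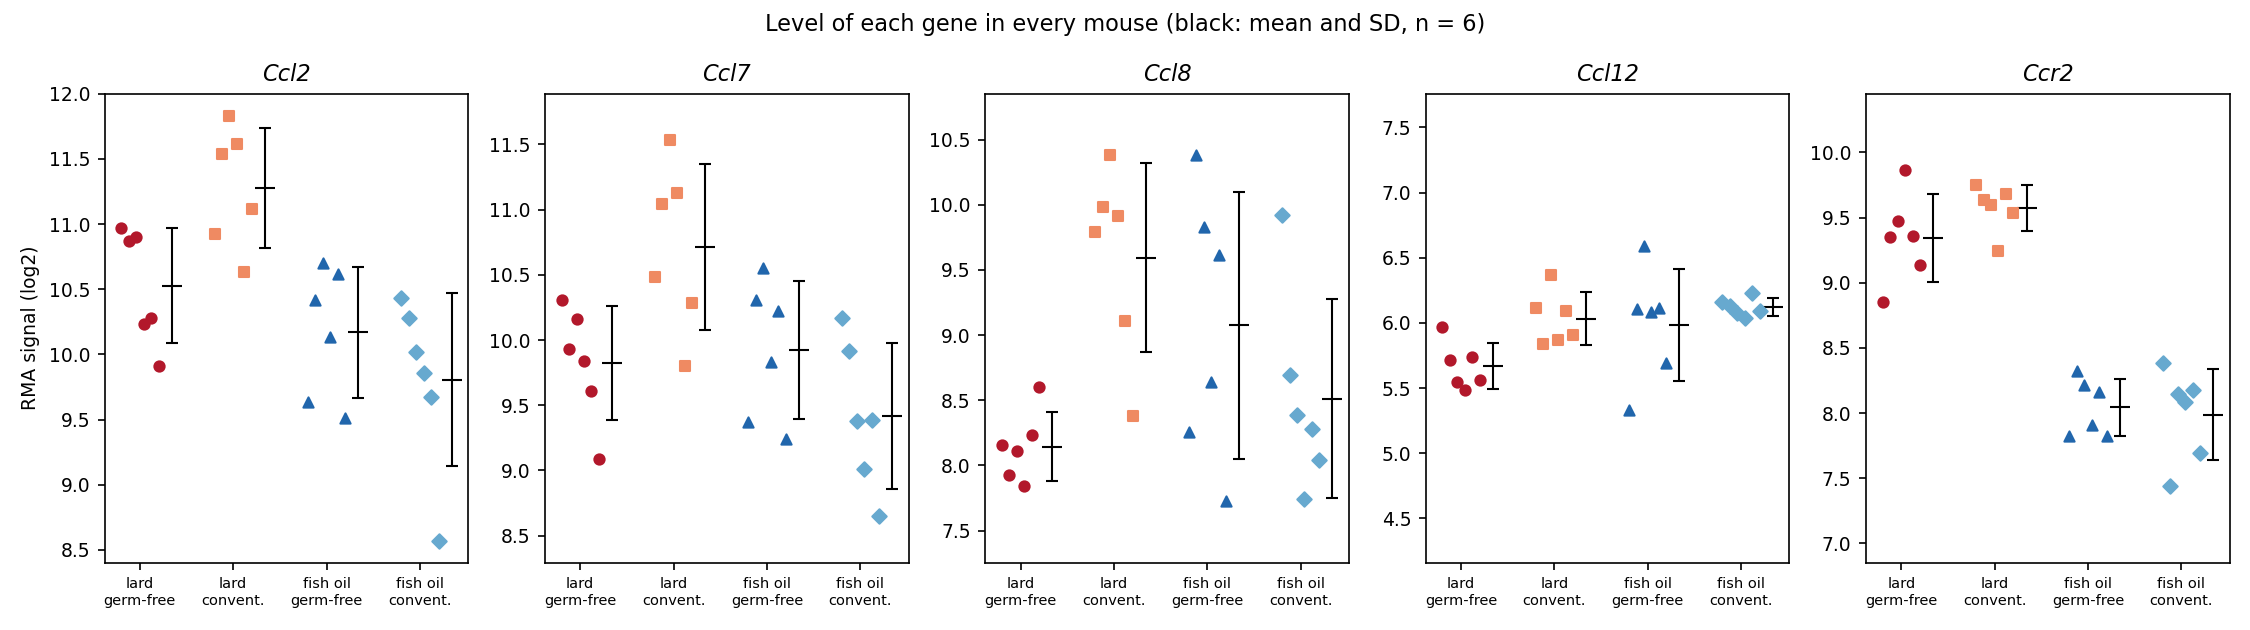
Log2 RMA signal of Ccl2, Ccl7, Ccl8, Ccl12 and Ccr2 in each of 24 mice, 1 panel per gene with axes of equal length, with the group mean and SD (n = 6) in black. All 12 lard-fed mice lie above all 12 fish oil-fed mice for Ccr2, and lard-fed germ-free mice form the lowest and tightest group for Ccl8.

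Ccl2 was higher with lard in conventional mice. Its lowest, median and highest log2 signals were 9.91, 10.58 and 10.97 in lard-fed germ-free mice and 10.63, 11.32 and 11.83 in lard-fed conventional mice. With fish oil they were 9.52, 10.28 and 10.70 in germ-free mice and 8.57, 9.94 and 10.43 in conventional mice. The 2 conventional groups did not overlap, while those of the germ-free mice did, with 3 lard-fed germ-free mice above all fish oil-fed ones. In conventional mice, Ccl2 averaged 11.28 ± 0.46 with lard and 9.81 ± 0.66 with fish oil (SD, n = 6 each), 2.77-fold higher, or 1.47 ± 0.28 in log2 (SE; limma adjusted p = 0.000202). In germ-free mice it averaged 10.53 ± 0.44 with lard and 10.17 ± 0.50 with fish oil (SD, n = 6 each), a log2 difference of 0.36 with a 95% confidence interval from -0.21 to 0.93 (limma adjusted p = 0.283). With the liver mean as a covariate that difference was -0.81 (limma adjusted p = 0.0911).

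Ccl7, the neighbour of Ccl2 in the genome, gave a similar picture in conventional mice. Its lowest, median and highest log2 signals were 9.09, 9.89 and 10.30 in lard-fed germ-free mice and 9.80, 10.76 and 11.53 in lard-fed conventional mice. With fish oil they were 9.24, 10.03 and 10.55 in germ-free mice and 8.65, 9.38 and 10.17 in conventional mice. Of the lard-fed conventional mice, 5 of 6 lay above all fish oil-fed conventional mice, and the germ-free groups lay over each other. In conventional mice the mean was 10.71 ± 0.64 with lard and 9.42 ± 0.56 with fish oil (SD, n = 6 each), 2.45-fold higher, or 1.29 ± 0.29 in log2 (SE; limma adjusted p = 0.0011). In germ-free mice the mean was 9.82 ± 0.44 with lard and 9.92 ± 0.53 with fish oil (SD, n = 6 each), a log2 difference of -0.10 with a 95% interval from -0.69 to 0.49 (limma adjusted p = 0.786).

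Ccl8 had the widest spread among the ligands in 3 of the 4 groups. Its lowest, median and highest log2 signals were 7.84, 8.13 and 8.60 in lard-fed germ-free mice and 8.38, 9.85 and 10.38 in lard-fed conventional mice. With fish oil they were 7.72, 9.13 and 10.38 in germ-free mice and 7.74, 8.33 and 9.92 in conventional mice. The lard-fed germ-free mice were all low and close together (SD 0.27), against SDs of 0.72 in lard-fed conventional, 1.03 in fish oil-fed germ-free and 0.76 in fish oil-fed conventional mice. In conventional mice Ccl8 averaged 9.59 with lard and 8.51 with fish oil (n = 6 each), 2.12-fold higher, or 1.08 ± 0.39 in log2 (SE; limma adjusted p = 0.0368). Leaving out single mice ended this call for 8 of 24 mice, with changes from 0.92 to 1.36 and limma adjusted p-values up to 0.0948. It also ended (limma adjusted p = 0.05) in the fit without the lard-fed germ-free mice numbered 2, 4 and 5, where the change itself was the same. In germ-free mice the means were 8.14 with lard and 9.08 with fish oil (n = 6 each), a log2 difference of -0.93 ± 0.39 (SE; limma adjusted p = 0.0526), opposite in sign to that of conventional mice. That difference passed the threshold with the liver mean as a covariate, at -1.86 (limma adjusted p = 0.0299), and without the lard-fed conventional mice numbered 5 and 6, at -0.93 (limma adjusted p = 0.0356).

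Within the fish oil-fed germ-free group, mice 1 and 6 had the most liver transcript and the lowest signals of all 5 members. Their liver means were 9.36 and 9.28, against 8.09 to 8.82 in the other 4 mice. Mice 1 and 6 had Ccl8 signals of 8.26 and 7.72, against 8.64 to 10.38 in the other 4. They also had Ccl2 signals of 9.64 and 9.52, Ccl7 signals of 9.37 and 9.24, Ccl12 signals of 5.33 and 5.69, and Ccr2 signals of 7.82 in both. Their macrophage means (10.39 and 10.56), classical monocyte means (8.38 and 8.46) and resident macrophage means (9.25 and 9.64) were the lowest of the group as well. The part of liver transcripts in the members' results was examined only through the covariate, which cannot cleanly part it from the group.

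Ccl12 gave a low signal, between 5.33 and 6.59 in all mice and under the median of every array (7.09 to 7.20), a range in which array signals are compressed. Its lowest, median and highest log2 signals were 5.49, 5.64 and 5.97 in lard-fed germ-free mice and 5.84, 6.00 and 6.37 in lard-fed conventional mice. With fish oil they were 5.33, 6.09 and 6.59 in germ-free mice and 6.04, 6.11 and 6.23 in conventional mice. The groups overlapped in all 4 comparisons, and 5 of 6 lard-fed germ-free mice lay below all lard-fed conventional mice. The log2 difference between lard and fish oil was -0.31 in germ-free mice (95% interval -0.60 to -0.03; limma adjusted p = 0.0626) and -0.09 in conventional mice (95% interval -0.37 to 0.20; limma adjusted p = 0.679). With the liver mean as a covariate the difference in germ-free mice was -0.77 (limma adjusted p = 0.00956).

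Counted over the axis, 1 of the 5 genes was higher with lard than with fish oil in germ-free mice (Ccr2), where 20.4% of all genes tested were higher with lard at the same threshold, a limma adjusted p under 0.05. In conventional mice lard raised 4 of the 5 (Ccl2, Ccl7, Ccl8 and Ccr2), where 15.4% of all genes were higher, and no member was lower with lard in either state. The median log2 difference over the 5 genes was -0.10 in germ-free mice, against -0.08 over all genes, and 1.29 in conventional mice, against -0.04 over all genes. In germ-free mice 1.09% of all genes differed more in size than Ccr2, and in conventional mice 0.436% did.

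**Figure D2:**
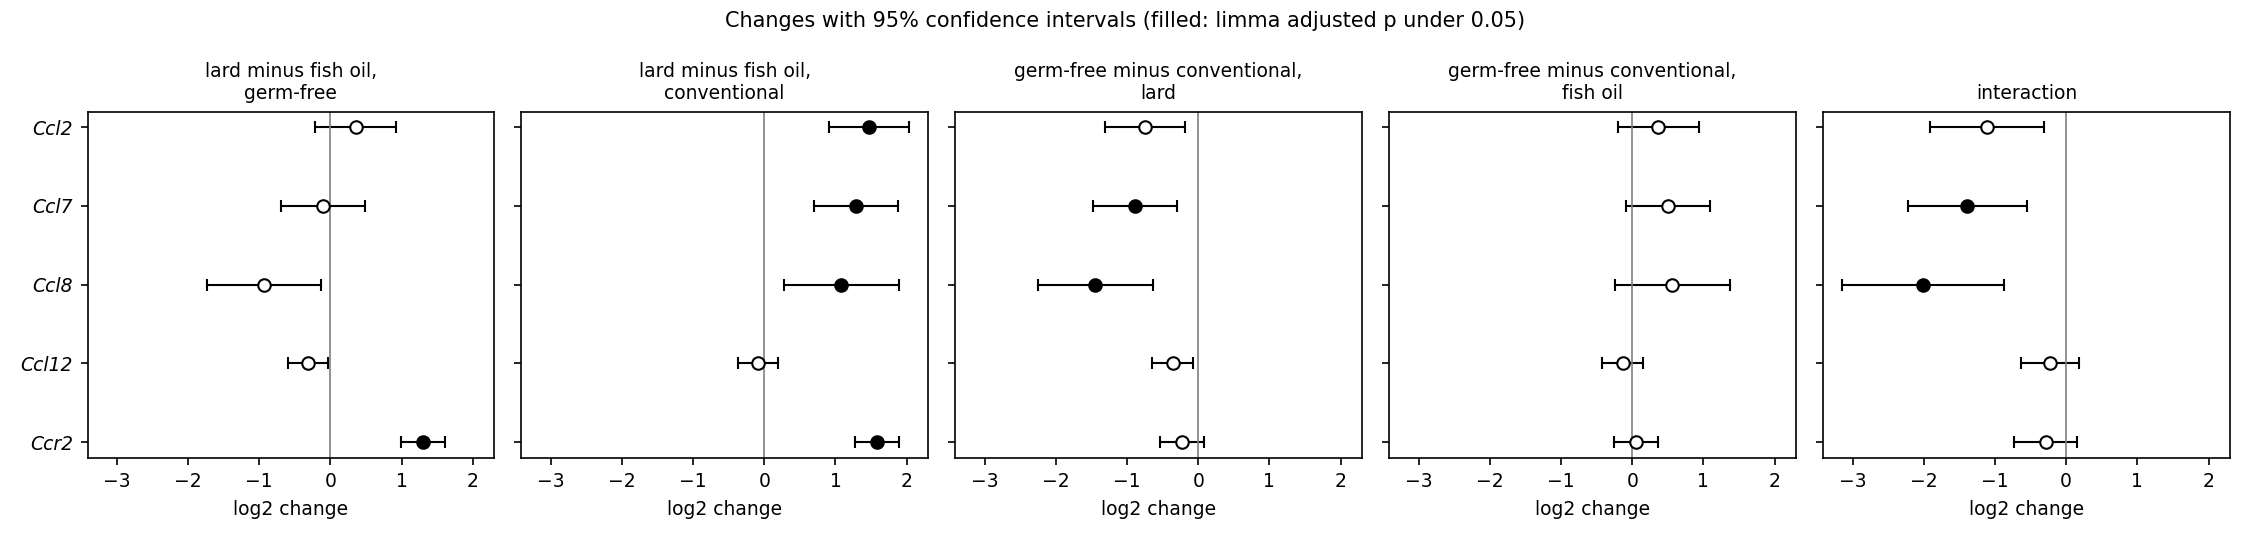
Log2 differences of the 5 genes with 95% confidence intervals in the 5 comparisons, filled where the limma adjusted p was under 0.05; the last panel is the lard minus fish oil difference in germ-free mice minus that in conventional mice. Lard minus fish oil is filled for 1 gene in germ-free and 4 genes in conventional mice, and the interaction for Ccl7 and Ccl8.

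With lard, the absence of microbes went with lower Ccl7 and Ccl8. Ccl8 was lower in lard-fed germ-free than in lard-fed conventional mice, with a log2 change of -1.45 ± 0.39 (SE, n = 6 each; limma adjusted p = 0.012), and 5 of 6 germ-free mice lay below all conventional ones. Ccl7 was lower at -0.89 ± 0.29 (SE, n = 6 each; limma adjusted p = 0.0347), with 2 of 6 germ-free mice below all conventional ones and all 6 below the conventional mean. These 2 of 5 members stand against 8.77% of all genes that were lower in germ-free mice on lard. Both calls ended without the lard-fed germ-free mice numbered 2, 4 and 5, at -1.30 for Ccl8 (limma adjusted p = 0.182) and -0.86 for Ccl7 (limma adjusted p = 0.247), when 3 germ-free mice remained. Leaving out single mice ended the Ccl7 call for 7 of 24 mice, with changes from -1.07 to -0.72, and the Ccl8 call for none.

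Ccl2, Ccl12 and Ccr2 did not pass the test between germ-free and conventional mice on lard. The log2 difference was -0.75 for Ccl2 (95% interval -1.32 to -0.18; limma adjusted p = 0.0659), and all 6 germ-free mice lay below the conventional mean. It was -0.36 for Ccl12 (95% interval -0.64 to -0.08; limma adjusted p = 0.0769) and -0.23 for Ccr2 (95% interval -0.54 to 0.08; limma adjusted p = 0.341). Without the lard-fed conventional mice numbered 5 and 6 Ccl2 passed at -0.95 (limma adjusted p = 0.022). Both mice had Ccl2 signals (10.63 and 11.12) under the mean of their group (11.28), so leaving them out by itself widens this difference. With the liver mean as a covariate Ccl2 passed at -0.91 (limma adjusted p = 0.00506) and Ccl12 at -0.43 (limma adjusted p = 0.0182). The exact permutation test of each gene alone, two-sided and unadjusted, gave p = 0.026 for Ccl2, p = 0.0108 for Ccl12 and p = 0.167 for Ccr2. The unadjusted limma p-values of these genes were 0.012, 0.0151 and 0.135.

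With fish oil, 0 of the 5 members passed the test of a difference between germ-free and conventional mice by limma, where 12.4% of all genes did in either direction. At an unadjusted limma p under 0.05 the count was also 0, as it was with the exact permutation test. The log2 differences were 0.37 for Ccl2 (95% interval -0.20 to 0.93), 0.50 for Ccl7 (-0.09 to 1.09), 0.56 for Ccl8 (-0.24 to 1.37), -0.13 for Ccl12 (-0.42 to 0.15) and 0.06 for Ccr2 (-0.25 to 0.37). The intervals of Ccl2, Ccl7 and Ccl8 reach close to or past a 1 log2 rise, so these arrays leave such a size within range, while that of Ccr2 does not reach 0.5. With the liver mean as a covariate, which was high in the germ-free mice of this comparison, the difference was 1.44 for Ccl2 (limma adjusted p = 0.0137) and 1.39 for Ccl7 (limma adjusted p = 0.0339).

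The difference between the diet effects was tested directly. The diet effect in germ-free mice minus that in conventional mice was -2.01 ± 0.55 on the log2 scale for Ccl8 (SE; limma adjusted p = 0.0287) and -1.39 ± 0.41 for Ccl7 (SE; limma adjusted p = 0.0375). Both lay on the lower side, as did 2.81% of all genes. It was -1.11 for Ccl2 (95% interval -1.92 to -0.31; limma adjusted p = 0.0837), -0.23 for Ccl12 (95% interval -0.63 to 0.18; limma adjusted p = 0.539) and -0.29 for Ccr2 (95% interval -0.73 to 0.15; limma adjusted p = 0.458). Ccl2 passed the test of diet in conventional and not in germ-free mice, but the difference between the 2 effects did not pass. It did pass without the lard-fed conventional mice numbered 5 and 6, at -1.31 (limma adjusted p = 0.033), and with the liver mean as a covariate, at -2.36 (limma adjusted p = 0.00213). Those mice lay under their group's mean of Ccl2, so leaving them out by itself enlarges this interaction. Without the lard-fed germ-free mice numbered 2, 4 and 5 the call ended for Ccl7, at -1.36 (limma adjusted p = 0.181), and for Ccl8, at -1.87 (limma adjusted p = 0.175). Leaving out single mice ended the Ccl7 call for 15 of 24 mice and the Ccl8 call for 4 of 24, with limma adjusted p-values up to 0.0754 and 0.0583.

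The sizes of the members' diet effects were set against each other within mice, as 40 exact permutation tests of the difference between 2 members' log2 values, 10 pairs in 4 comparisons of 6 against 6 mice. The smallest p such a test can give is 0.00216, and 9 tests passed after Benjamini-Hochberg adjustment. In germ-free mice 3 ligands had smaller diet effects than Ccr2, and the effect of the ligand minus that of Ccr2 was -1.40 for Ccl7 (exact test, adjusted p = 0.0247), -1.61 for Ccl12 (exact test, adjusted p = 0.0217) and -2.23 for Ccl8 (exact test, adjusted p = 0.0217). For Ccl2 minus Ccr2 it was -0.94 and missed the threshold (exact test, adjusted p = 0.0505). In the same mice the effect of Ccl2 exceeded that of Ccl7 by 0.46 (exact test, adjusted p = 0.0247), that of Ccl12 by 0.67 (exact test, adjusted p = 0.0247) and that of Ccl8 by 1.29 (exact test, adjusted p = 0.0385).

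In conventional mice 3 tests passed, and each set Ccl12 against another member. Since Ccl12 lay in the range where array signals are compressed, a smaller diet effect of Ccl12 and a compressed one cannot be told apart, here or in the 2 passing tests with Ccl12 in germ-free mice. The diet effect of Ccl2 exceeded that of Ccl12 by 1.56 (exact test, adjusted p = 0.0217) and that of Ccl7 did so by 1.38 (exact test, adjusted p = 0.0325). The effect of Ccl12 minus that of Ccr2 was -1.68 (exact test, adjusted p = 0.0217). The effect of Ccl2 minus that of Ccr2 was -0.12 in these mice (exact test, adjusted p = 0.766). For Ccl7 minus Ccr2 it was -0.29 (exact test, adjusted p = 0.503). No pair passed between germ-free and conventional mice on either diet.

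The members also differed in how they moved together from mouse to mouse. Ccl2 and Ccl7 varied together: over the 24 mice Pearson's r was 0.930 and Spearman's rank correlation 0.911. Of the deviations from the group means r was 0.914, and within the groups of 6 it ran from 0.873 to 0.982. The 2 probe sets measure related genes on the same arrays, and because probe sequences were not analysed here, shared binding of RNA was not tested. Ccl8 and Ccl2 had an r of 0.584 over all mice, with values within groups from -0.50 to 0.90. Ccr2 and Ccl2 had an r of 0.668 over all mice but 0.151 for the deviations from the group means. Ccl12 and Ccr2 had an r of -0.243. These values are descriptions of 24 mice in 4 groups.

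**Figure D3:**
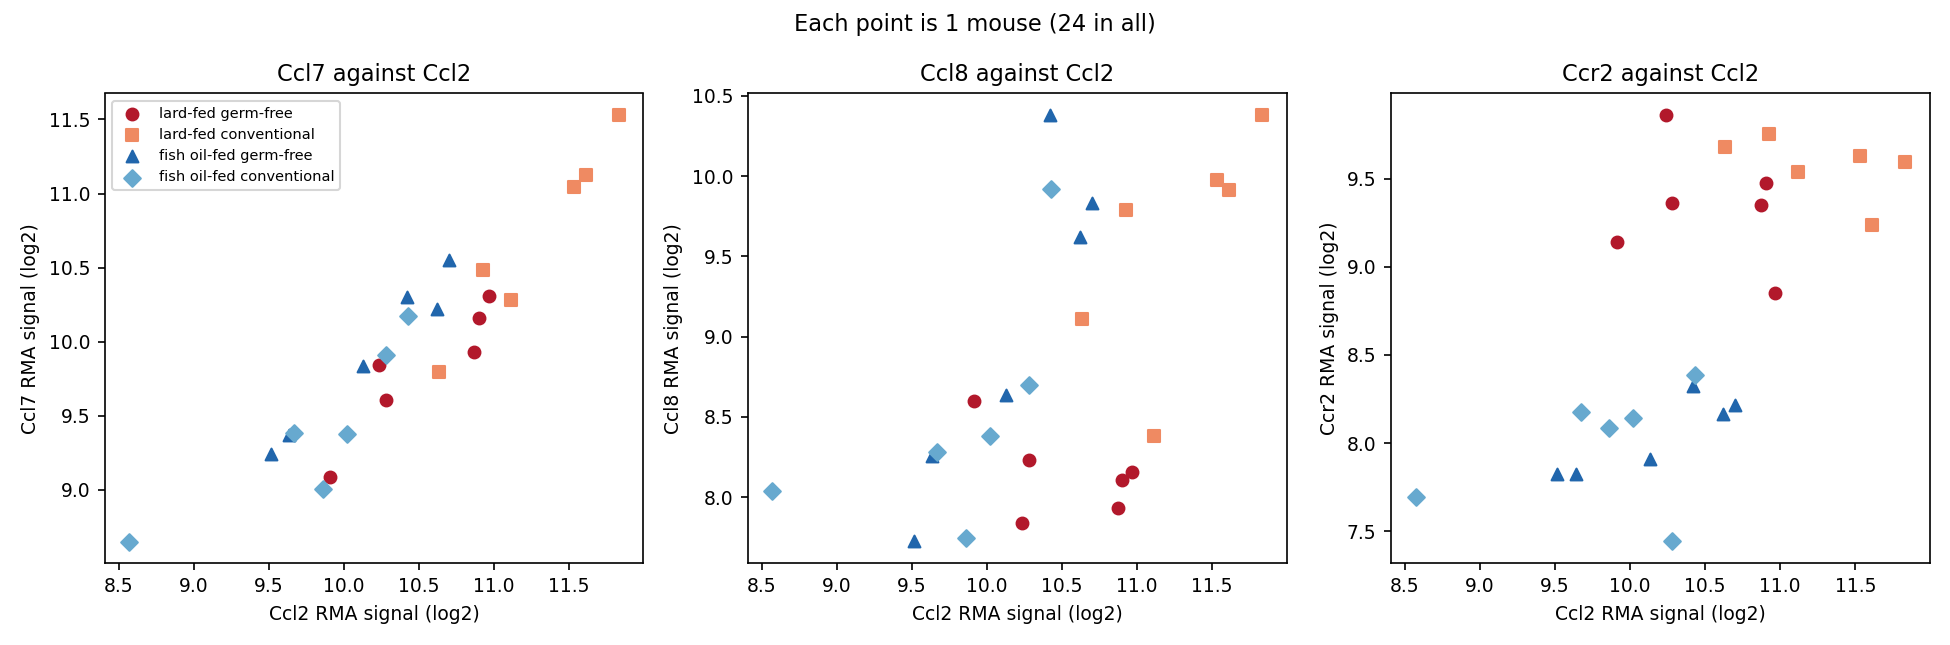
Log2 RMA signals of Ccl7, Ccl8 and Ccr2 against that of Ccl2, each point 1 mouse (24 in all), with the 4 groups marked. Ccl7 follows Ccl2 in all groups (r = 0.930), lard-fed germ-free mice lie low for Ccl8 at mid-range Ccl2, and Ccr2 splits by diet.

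Among all named genes, the 5 whose values were most like those of each member over 24 mice were taken by Pearson's r. For Ccl2 these were Ccl7 and then Arhgdib (r = 0.888), with Tubb2a (0.884), Ube2c (0.879) and Cks2 (0.879). For Ccl7 they were Ccl2, the chemokine gene Ccl19 (0.891), Cks2 (0.842), B230307C23Rik (0.822) and Csf1 (0.818), the macrophage growth factor. For Ccl8 they were Fabp5 (0.881), a fatty acid binding protein, Gngt2 (0.861), Ifitm2 (0.834) and the C-type lectin genes Cd209d (0.822) and Cd209a (0.818). For Ccl12 they were Rps6 (0.832), Znrd1 (0.824), Rybp (0.802), Srf (0.790) and Tbp (0.788). For Ccr2 they were H2-DMa (0.953) and H2-Ab1 (0.936), genes of class II antigen presentation, with Ubd (0.950), Aaas (0.949) and Cdkl4 (0.944). For the deviations from the group means, the r of these 5 genes with Ccr2 was lower, from 0.420 to 0.625. That of the genes listed for the other members was 0.693 to 0.914. Apart from Ccl2 with Ccl7, and Cks2 with both Ccl2 and Ccl7, no gene stood in more than 1 of these lists.

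The neighbouring genes Ccl11 and Ccl1 were not higher with lard in either bacterial state. Ccl11, the eosinophil attractant that lies between Ccl7 and Ccl12, had a log2 difference between lard and fish oil of -0.04 in germ-free mice (limma adjusted p = 0.81) and 0.00 in conventional mice (limma adjusted p = 0.991). Ccl1, next to Ccl8 and a ligand of Ccr8, was lower with lard, at -0.20 in germ-free mice (limma adjusted p = 0.00916) and -0.19 in conventional mice (limma adjusted p = 0.0184). Of 7 related chemokine genes of the cluster and its surroundings, 2 were higher and 2 lower with lard in germ-free mice, whereas 2 were higher and 1 lower in conventional mice, with median log2 differences of -0.09 in germ-free and 0.27 in conventional mice. Of all genes, 20.4% were higher and 27.1% lower in germ-free mice, and 15.4% were higher and 15.6% lower in conventional mice. The counts of this list lay near those shares. The 2 that were higher in both states were Ccl9, by 1.07 in germ-free and 1.28 in conventional mice, and Ccl6, by 0.64 in germ-free and 1.03 in conventional mice. Ccl5 was lower in germ-free than in conventional mice on lard at -0.88 (limma adjusted p = 0.012), and Ccl3 higher in germ-free mice on fish oil by 1.5 (limma adjusted p = 0.00616). Ccl3 did not pass for diet, with means of 10.42 on lard and 10.84 on fish oil in germ-free mice. In conventional mice they were 10.24 on lard and 9.34 on fish oil. The Ccl3 interaction did not pass, but with the liver mean as a covariate it did, at -2.09 (limma adjusted p = 0.0491). The rest of this list was Ccl4, lower with lard at -0.20 in germ-free mice (limma adjusted p = 0.0299). The group means of Ccl1 (6.31 to 6.55) and Ccl4 (6.36 to 6.56) lay under every array median, in the range where signals are compressed.

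Of the other receptors and scavengers that bind these ligands or resemble those that do, 7 of 8 were measured. In germ-free mice 1 was higher and 1 lower with lard, and in conventional mice 4 were higher and none lower, with median log2 differences of 0.02 in germ-free and 0.41 in conventional mice. Of all genes, 20.4% were higher and 27.1% lower in germ-free mice, and 15.4% were higher and 15.6% lower in conventional mice. Ccr3, a receptor of Ccl7, was higher with lard by 0.87 in germ-free mice (limma adjusted p = 0.000759) and 0.58 in conventional mice (limma adjusted p = 0.0231). Ccr1, which Ccl7 also uses, had a difference of 0.33 in germ-free mice (limma adjusted p = 0.0755) and was 0.58 higher in conventional mice (limma adjusted p = 0.00473). Ccr8, a receptor of mouse Ccl8, was lower with lard at -0.22 in germ-free mice (limma adjusted p = 0.0403), with -0.11 in conventional mice (limma adjusted p = 0.398). The decoy receptor Ackr1, which binds Ccl2 on venules, had 0.02 in germ-free mice (limma adjusted p = 0.906) and was 0.57 higher with lard in conventional mice (limma adjusted p = 0.00163). Ackr2, the main scavenger of inflammatory chemokines, had -0.01 in germ-free mice (limma adjusted p = 0.917) and -0.23 in conventional mice (limma adjusted p = 0.0704). Ccrl2 was higher with lard in conventional mice by 0.41 (limma adjusted p = 0.0161), and in germ-free than conventional mice on fish oil by 0.60 (limma adjusted p = 0.00347). Ackr4 did not pass in any comparison, with -0.13 for lard in germ-free and -0.18 in conventional mice. The group means of Ccr1 (6.03 to 6.61), Ccr3 (6.01 to 6.89) and Ccr8 (4.98 to 5.22) lay under every array median. Signals are compressed in that range.

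Of 15 measured genes that act downstream of Ccr2, 12 were higher with lard and none lower in germ-free mice, but with the liver mean as a covariate 4 of the 15 were higher there. In conventional mice 12 were higher and none lower, also with the covariate. The median log2 differences were 0.35 in germ-free and 0.40 in conventional mice. Of all genes, 20.4% were higher with lard in germ-free and 15.4% in conventional mice. Whether these counts follow signalling by Ccr2 or the number of blood cells in the fat was not tested. Among the genes higher with lard were the phosphoinositide 3-kinase subunits Pik3cg, by 1.09 in germ-free and 0.62 in conventional mice, and Pik3r5, by 0.78 in germ-free and 1.17 in conventional mice. Rac2, a GTPase of blood cells that drives migration, was higher by 0.81 in germ-free and 1.13 in conventional mice, and its activator Vav1 by 0.86 in germ-free and 0.95 in conventional mice. On lard, 2 of the 15 were higher and 2 lower in germ-free than in conventional mice, where 7.48% of all genes were higher and 8.77% lower, and without the lard-fed conventional mice numbered 5 and 6 these counts were 7 and 2. The 2 higher were Ptk2b, a kinase, by 0.31 (limma adjusted p = 0.00399) and Gnb1, a G protein subunit, by 0.24 (limma adjusted p = 0.00857). Plcb2 and Arrb2, a phospholipase and an arrestin that ends receptor signals, were lower in germ-free than in conventional mice on lard, at -0.41 (limma adjusted p = 0.00164) and -0.37 (limma adjusted p = 0.00495). Their interactions also passed, at -0.58 (limma adjusted p = 0.00455) and -0.53 (limma adjusted p = 0.0105), with the sign found for Ccl7 and Ccl8. Nup85, which binds the receptor's inner end, had 0.03 for lard in germ-free mice and 0.01 in conventional mice (smaller limma adjusted p = 0.612).

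Over all genes tested, 20.4% were higher and 27.1% lower with lard in germ-free mice, while 15.4% were higher and 15.6% lower in conventional mice, and the next lists are read against these shares. Of 14 measured inducers and their receptors, 6 were higher and 3 lower with lard in germ-free mice, whereas 7 were higher and 1 lower in conventional mice, with median log2 differences of -0.05 in germ-free and 0.22 in conventional mice. The share lower in germ-free mice was thus no larger than that of all genes, and with the liver mean as a covariate none was higher and 6 were lower there. Tnf, a strong inducer of Ccl2, was higher by 0.36 in germ-free mice (limma adjusted p = 0.00887) and 0.65 in conventional mice (limma adjusted p = 5.4e-05), and its receptor Tnfrsf1b by 0.49 in germ-free and 0.89 in conventional mice. Il1b was lower with lard, at -0.77 in germ-free mice (limma adjusted p = 0.00224) and -0.52 in conventional mice (limma adjusted p = 0.0419). Il1a was lower with lard in germ-free mice at -1.12 (limma adjusted p = 4.95e-06), had 0.06 in conventional mice (limma adjusted p = 0.831), and its interaction passed at -1.18 (limma adjusted p = 0.00271). Csf1 had an interaction of -0.42 (limma adjusted p = 0.0447), with -0.18 for lard in germ-free mice (limma adjusted p = 0.103) and 0.24 in conventional mice (limma adjusted p = 0.0429). Il6 did not pass, with -0.29 in germ-free mice (limma adjusted p = 0.144) and 0.09 in conventional mice (limma adjusted p = 0.727). The group means of Il1a (4.99 to 6.12), Il1b (6.29 to 7.06) and Il6 (3.99 to 4.28) lay under every array median. Signals are compressed in that range, which limits what could be seen of these 3 genes.

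Of 14 measured genes for the transcription and mRNA decay of Ccl2, 4 were higher and 3 lower with lard in germ-free mice, whereas 7 were higher and none lower in conventional mice, with median log2 differences of 0.06 in germ-free and 0.19 in conventional mice. The counts in germ-free mice were near the shares of all genes (20.4% higher and 27.1% lower). The NF-kappaB subunit gene Rel was higher by 0.82 in germ-free and 0.78 in conventional mice, and the AP-1 gene Fos by 1.03 in germ-free and 0.88 in conventional mice. Nfkbia, the NF-kappaB inhibitor that NF-kappaB itself induces, was lower with lard in germ-free mice at -0.58 (limma adjusted p = 7.88e-06) and had 0.00 in conventional mice (limma adjusted p = 0.977). Its interaction was -0.58 (limma adjusted p = 0.0049). The liver mean was high in the fish oil-fed germ-free mice on which this difference rests. With the liver mean as a covariate the Nfkbia interaction was -0.61 (limma adjusted p = 0.0249). Without the lard-fed germ-free mice numbered 2, 4 and 5 it was -0.47 and did not pass (limma adjusted p = 0.0749).

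Other routes by which monocytes enter tissue were mostly higher with lard: 11 of 16 measured genes were higher and 1 lower in germ-free mice, and 11 higher and none lower in conventional mice. The median log2 difference was 0.51 in germ-free and 0.62 in conventional mice. The integrin chains Itgam (1.25 in germ-free and 1.19 in conventional mice) and Itgb2 (1.17 in germ-free and 1.33 in conventional mice) form the leukocyte adhesion receptor Mac-1. The complement receptor C5ar1 was higher by 1.09 in germ-free and 1.43 in conventional mice, and the selectin ligand Selplg by 0.80 in germ-free and 1.10 in conventional mice. Vcam1, an adhesion gene of endothelium, was higher by 0.90 in germ-free and 0.89 in conventional mice.

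Marker genes of the cells that carry Ccr2 or descend from such cells gave different counts. Of 9 measured classical monocyte markers, 2 were higher with lard in germ-free mice and 4 in conventional mice, with none lower, and 4 were lower in germ-free than in conventional mice on lard. The median log2 difference of the list on lard was -0.43, against -0.02 over all genes. Of all genes, 8.77% were lower in that comparison, and 5 of the 9 markers did not pass. The 4 that were lower were Ifitm6 at -1.28 (limma adjusted p = 0.00166), Ms4a4c at -0.60 (limma adjusted p = 0.0106), Ly6i at -0.43 (limma adjusted p = 0.00573) and Hp at -0.26 (limma adjusted p = 0.0084). Hp had group means of 12.99 to 13.45, near those of the adipocyte marker Adipoq (13.08 to 13.60). Which cells gave the Hp signal was not tested. Ly6i (5.95 to 6.39) lay under every array median, where signals are compressed. The mean of the list lay between 8.50 and 8.93 in lard-fed germ-free mice and between 8.77 and 9.41 in lard-fed conventional mice. Ly6i had an interaction of -0.59 (limma adjusted p = 0.0168), again with the sign of Ccl7 and Ccl8.

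Of 15 measured macrophage markers, 11 were higher and 1 lower with lard in germ-free mice, whereas 14 were higher and none lower in conventional mice, with median log2 differences of 0.47 in germ-free and 0.93 in conventional mice. Adgre1, the gene of a surface protein used to mark mouse macrophages, was higher by 1.76 in germ-free mice (limma adjusted p = 9.51e-07) and 1.37 in conventional mice (limma adjusted p = 2.32e-05), and the Fc receptor gene Fcgr1 by 1.16 in germ-free and 1.40 in conventional mice. Between germ-free and conventional mice on lard, 2 macrophage markers were higher and 1 lower, beside 7.48% of all genes higher and 8.77% lower. With fish oil, 7 of the 15 were higher in germ-free than in conventional mice and none lower (median 0.32), and 6 were higher with the liver mean as a covariate. Of 12 measured markers of lipid-associated macrophages, 6 were higher with lard in germ-free mice and 10 in conventional mice, with none lower. With fish oil, 8 of these 12 were higher in germ-free than in conventional mice and none lower (median 0.83), and 7 were higher with the covariate, while 5.21% of all genes were higher in that comparison. Fabp5, the gene most like Ccl8, is one of the 12 markers but did not share this rise. Its mean on fish oil was 12.22 in germ-free and 12.15 in conventional mice. On lard it was 12.01 in germ-free and 12.39 in conventional mice.

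Of 16 resident macrophage markers, 3 were higher and 2 lower with lard in germ-free mice, whereas 4 were higher and 3 lower in conventional mice, while 3 were lower in germ-free than in conventional mice on lard. The diet counts in germ-free mice were under the shares of all genes, 20.4% higher and 27.1% lower, and those in conventional mice stand beside 15.4% higher and 15.6% lower. Cd209d, which followed Ccl8, was among those 3, at -1.28 (limma adjusted p = 0.0223). Of 8 dendritic cell markers, 6 were lower in germ-free than in conventional mice on lard, among them Clec9a at -0.72 (limma adjusted p = 0.00176), Cd209a at -0.78 (limma adjusted p = 0.0258) and Flt3 at -0.48 (limma adjusted p = 0.00446). The interactions of these 3 also passed, at -0.71 (limma adjusted p = 0.0372), -1.26 (limma adjusted p = 0.0245) and -0.64 (limma adjusted p = 0.0149). The median log2 difference on lard was -0.33 for resident macrophage and -0.41 for dendritic cell markers. Of all genes, 8.77% were lower in germ-free mice on lard. Without the lard-fed germ-free mice numbered 2, 4 and 5, 1 dendritic cell marker was lower there. The interactions of Clec9a, Cd209a and Flt3 did not pass in that fit. The part of these cell types in the Ccl8 and Ccl7 results was not tested.

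**Figure D4:**
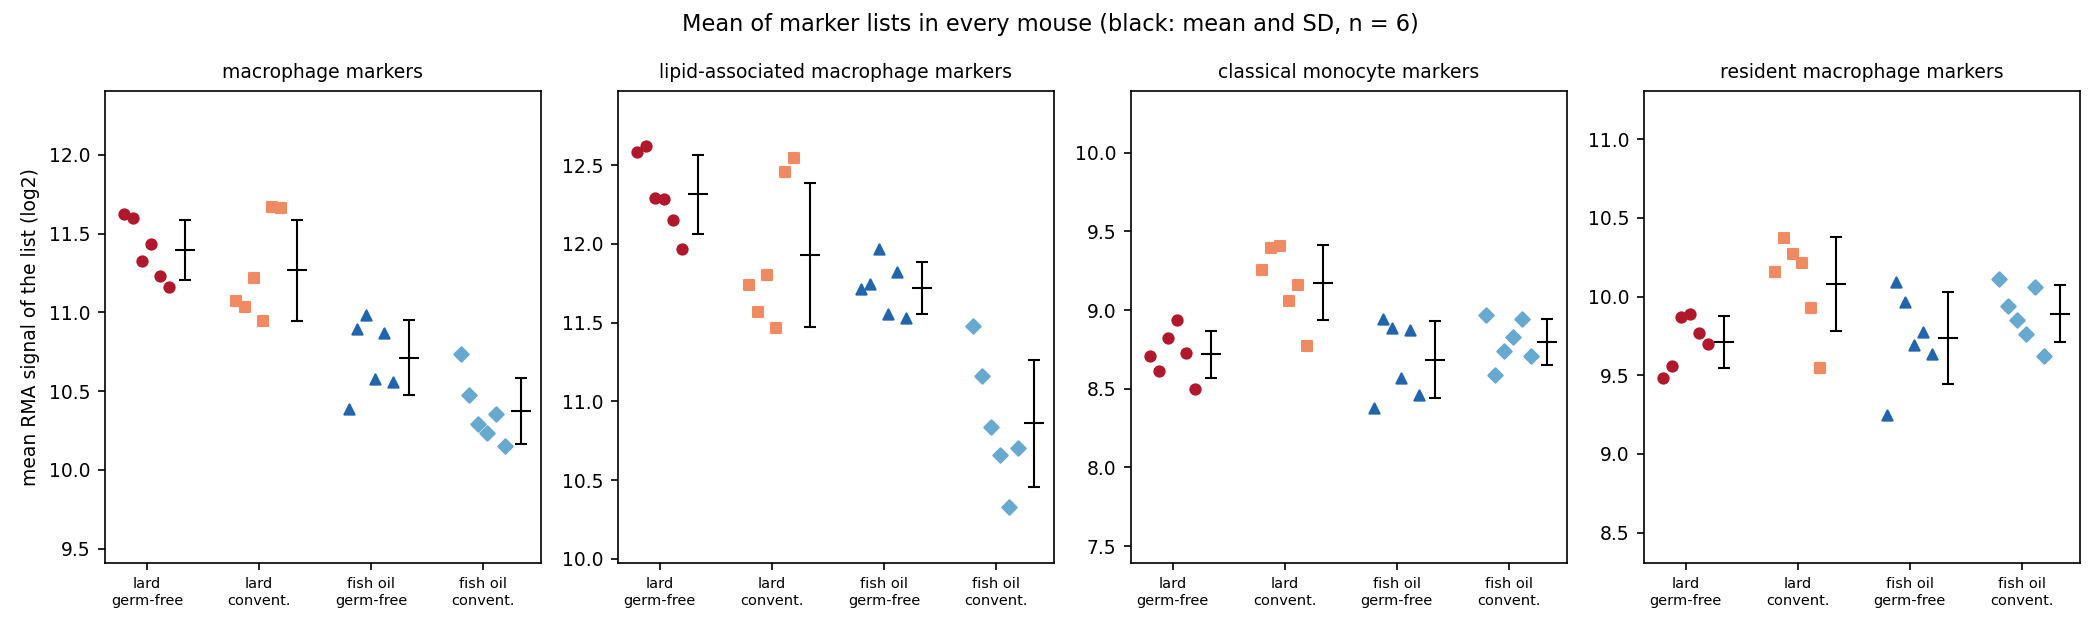
Mean log2 RMA signal of 4 marker lists in each of 24 mice, with the group mean and SD (n = 6) in black. Macrophage means lie between 10.95 and 11.67 in lard-fed mice and between 10.15 and 10.99 in fish oil-fed mice. For lipid-associated macrophage markers 2 lard-fed conventional mice reach 12.45 and 12.54. For classical monocyte markers lard-fed germ-free mice lie between 8.50 and 8.93, within the 8.38 to 8.97 of fish oil-fed mice.

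Among lard-fed conventional mice, mice 5 and 6 had macrophage means of 11.67 and 11.66, against 10.95 to 11.22 in the other 4. Their mean of resident macrophage markers was 9.93 and 9.55, against 10.15 to 10.37, and that of mature adipocyte markers 12.24 and 12.26, against 12.69 to 12.75. Their Ccl8 signals, 9.11 and 8.38, were the lowest of the group, as were their Ccl7 signals, 9.80 and 10.28. Ccl2 was 10.63 and 11.12 in these mice, against 10.93 to 11.83 in the other 4, and Ccr2 was 9.68 and 9.54, within the range of the others (9.24 to 9.75). Their lipid-associated macrophage means, 12.45 and 12.54, lay within those of lard-fed germ-free mice (11.97 to 12.62), as did their Ccl7 signals (9.09 to 10.30). Ccl8 of mouse 6 lay within the germ-free range (7.84 to 8.60), but Ccl8 of mouse 5 and Ccl2 of mouse 6 lay above theirs. Their macrophage means lay above and their adipocyte means below those of lard-fed germ-free mice. The reason was not tested. Without them the lard minus fish oil difference in conventional mice was 1.67 for Ccl2 (limma adjusted p = 0.000279), 1.63 for Ccl7 (limma adjusted p = 0.000234), 1.51 for Ccl8 (limma adjusted p = 0.00782) and 1.57 for Ccr2 (limma adjusted p = 1.4e-06). For Ccl2, Ccl7 and Ccl8 both mice lay under their group's mean, so leaving them out by itself widens these differences.

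Liver and intestinal transcripts moved with some of these groups. Of 19 liver genes, 17 had lower signals with lard than with fish oil in germ-free mice and 15 were higher in germ-free than in conventional mice on fish oil, and none passed between the 2 groups on lard. Of 19 intestinal epithelium transcripts, 2 were higher and 1 lower with lard in germ-free mice, whereas 2 were higher in germ-free than in conventional mice on lard. For Ccr2 the lard minus fish oil difference in germ-free mice was 1.37 with the liver mean as a covariate (limma adjusted p = 0.00123) and 1.11 without the lard-fed germ-free mice numbered 2, 4 and 5 (limma adjusted p = 0.000144).

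The same fits were run for the other genes and lists. With the liver mean as a covariate, 21 of the 40 calls of named genes for lard against fish oil in germ-free mice ended. Because that mean nearly sets the fish oil-fed germ-free group apart, a call can end there through a wider error as well as a smaller change. In that fit the number of genes higher with lard in germ-free mice was 4 instead of 12 of 15 for Ccr2 signalling and 4 instead of 11 of 15 for macrophage markers. For other routes of monocyte recruitment it was 6 instead of 11 of 16, for lipid-associated macrophage markers 1 instead of 6 of 12, and for inducers of Ccl2 none instead of 6 of 14, with 6 instead of 3 lower. In conventional mice the covariate left these 5 lists at 12, 14, 12, 10 and 7 genes higher with lard. Without the lard-fed conventional mice numbered 5 and 6, 7 instead of 2 macrophage markers and 8 instead of 2 lipid-associated macrophage markers were higher in germ-free than in conventional mice on lard, and 8 instead of 3 resident macrophage markers were lower. Without the lard-fed germ-free mice numbered 2, 4 and 5, none of the classical monocyte and 1 of the dendritic cell markers were lower in germ-free mice on lard. In that fit none of the members or other genes named above passed between germ-free and conventional mice on lard, and of the interactions those of Plcb2 (-0.56) and Il1a (-1.28) passed.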

How the data were processed

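RNA of epididymal fat from 24 mice was hybridised to 1 Affymetrix array per mouse, from 250 ng each, per the labels' protocols. Per the submitters' processing notes, RMA made the deposited log2 signals. Its version is, like any scan batch, not given in the sources used here. RMA brings the distributions of arrays close (array medians 7.09 to 7.20) and compresses low signals. The number of arrays limits the precision.

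Probe sets were named through platform annotation, with symbols updated by Entrez ID in RefSeq (GRCm38.p6): 21789 of 35556 had 1 symbol, 1621 several and 12146 none. Per gene the probe set with the highest mean was used, leaving 19938 genes. All 24 arrays entered 1 fit of 4 group means in limma 3.58.1 (lmFit, eBayes; R 4.3.3). Its two-sided p-values were Benjamini-Hochberg adjusted across all genes of each comparison and called under 0.05. Pairs of members were compared by exact permutation tests over 924 splits, adjusted over 40 tests. Tables and figures used python 3.11.15, numpy 2.4.6, pandas 2.3.3 and matplotlib 3.10.9. The fit was tested on simulated data. The alternatives are given in the closing section.

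The 5 genes and the 25 other gene lists were chosen with earlier results of these data known. Named were the 5 members, up to 4 called genes of a list, by size of change, all genes of the related chemokine and receptor lists, and the 5 genes most like each member; Nup85 and Il6 were named outside this rule, after their values were seen. Over all probe sets, deviations of same-numbered mice from their group means had correlations from -0.38 to 0.30 between groups. Of 36 pairs, 8 were over 0.1. For Ccl2, mouse 6 lay below and mice 2 and 3 above the group mean in all 4 groups. The labels do not say whether same-numbered mice shared anything. Protein sequences were not used here.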

Additional observations from a re-analysis of the deposited data

Results flagged for a closer look

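The interaction of diet and bacterial status passed the test for 2 of the 5 genes, so their diet effects differed between germ-free and conventional mice. For Ccl7 the lard minus fish oil effect in germ-free mice minus that in conventional mice was -1.39 on the log2 scale, from -0.10 in germ-free and 1.29 in conventional mice (limma adjusted p = 0.0375). For Ccl8 it was -2.01, from -0.93 in germ-free and 1.08 in conventional mice (limma adjusted p = 0.0287). No mouse's value of a member stood apart from the other 5 of its group by Dixon's test.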

How the results depend on the processing

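Of 310 values of the members under the alternatives other than leaving out single mice, 276 stayed on their side of the threshold and, where called, kept their direction, 24 came to pass it and 10 ceased to. These counts hold the exact permutation tests, whose unadjusted p-values were set against adjusted limma ones. The tests of Ccl2, Ccl7 and Ccr2 for diet in conventional mice, of Ccr2 for diet in germ-free mice and of Ccl8 for bacterial status on lard held without any single mouse. The Ccl8 call in germ-free mice on diet (-0.93) was made without genes under the 40th percentile (adjusted p = 0.0461), with only the groups compared (0.0464), with the mouse number as a replicate block (0.0448), with array weights (-0.94) and without the lard-fed conventional mice numbered 5 and 6; the liver covariate gave -1.86 and, for Ccl12, -0.77. In conventional mice the Ccl8 call (1.08) ended with all probe sets (0.0516), a trended and robust eBayes (0.0528) and without the lard-fed germ-free mice numbered 2, 4 and 5 (0.05). For bacterial status on lard, Ccl2 (-0.75) passed with the filter (0.0446), with only the groups compared (0.0481), under the replicate block (0.0202) and with array weights (-0.93). It also passed without the lard-fed conventional mice numbered 5 and 6 (-0.95), both under their group's mean of Ccl2, and with the liver covariate (-0.91). Its exact permutation test gave an unadjusted p of 0.026, beside an unadjusted limma p of 0.012. Ccl12 (-0.36) passed with only the groups compared (0.0382), with array weights (-0.38) and with the liver covariate (-0.43). Its exact permutation test gave an unadjusted p of 0.0108, beside an unadjusted limma p of 0.0151. Ccl7 (-0.89) was lost with only the groups compared (0.0508), and without the lard-fed germ-free mice numbered 2, 4 and 5 Ccl7 (-0.86) and Ccl8 (-1.30) were. On fish oil the liver covariate gave 1.44 for Ccl2 and 1.39 for Ccl7. For the interaction, Ccl7 (-1.39) was lost with all probe sets (0.0547) and the robust eBayes (0.0512). Ccl2 passed with array weights (-1.21), under the replicate block (-1.11; 0.0331), without the lard-fed conventional mice numbered 5 and 6 (-1.31) and with the liver covariate (-2.36). Without the lard-fed germ-free mice numbered 2, 4 and 5 Ccl7 (-1.36) and Ccl8 (-1.87) were lost. The labels do not say whether same-numbered mice shared anything, and the block changed no other member's call. It moved the genes called by less than 1.5 times, to between 1131 for the interaction and 9253 for diet in germ-free mice.

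Leaving out single mice changed calls within these ranges: for bacterial status on lard, -0.42 to -0.29 for Ccl12, -0.88 to -0.62 for Ccl2 and -1.07 to -0.72 for Ccl7; for the interaction, -1.57 to -1.23 for Ccl7 and -2.30 to -1.75 for Ccl8; for diet, 0.92 to 1.36 for Ccl8 in conventional mice, and -0.45 to -0.19 for Ccl12 and -1.20 to -0.67 for Ccl8 in germ-free mice. The number of member pairs that differed, 9, ran from 7 to 14. The genes called in the interaction, 1435, ran from 861 to 2070.

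Genes called numbered 9468 for diet in germ-free mice, 6178 for diet in conventional mice, 3240 for status on lard, 2464 for status on fish oil and 1435 for the interaction. A bound of at least 1.5-fold left 1985 for diet in germ-free and 1627 in conventional mice, 294 for status on lard, 361 for status on fish oil and 385 for the interaction. All probe sets gave 14835 for diet in germ-free mice and 5053 for status on lard. Array weights gave 5033 for status on lard and 2526 for the interaction. The fit without the lard-fed conventional mice numbered 5 and 6 gave 5079 for status on lard and 2710 for the interaction. The fit without the lard-fed germ-free mice numbered 2, 4 and 5 gave 5278 for diet in germ-free mice, 177 for status on lard and 225 for the interaction. The liver covariate gave 5569 for diet in germ-free mice. The cause of these changes was not tested. Median centring of each array moved the calls for diet in germ-free mice from 4072 up and 5396 down to 4808 and 3313, for status on fish oil (1039 and 1425) to 701 and 2757, and for the interaction (874 and 561) to 1688 and 312, and changed no member's call. The 3 alternatives that leave out sets of mice or add the liver mean were chosen after seeing the data. With 6 arrays a group, a change of Ccl8 near 1 log2 was close to the smallest that passed, and the low signal of Ccl12 limits what could be seen of it.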
